A study of Mus musculus with 3 samples.

Results

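Antisense long non-coding genes were followed in RNA of the cytosol of macrophages that had been differentiated from mouse bone marrow, a standard primary cell model of innate immunity. A gene was taken when the annotation names of its transcripts carried the biotype antisense and its mean over 3 libraries was at least 0.5 TPM (a level per kilobase of transcript, scaled to a fixed total per library). Genes with a symbol starting with Snhg, and Kcnq1ot1, Tsix, Gas5 and Zfas1, were left out. This gave 136 genes of 3091 with an antisense transcript and of 55536 in the gene tables. The genes were thus selected on their mean TPM, and levels are given below as a description and without a test. The 3 libraries formed 1 group of primary cells of strain C57BL/6J, which had received lipid A (100 ng/ml) over 12 hours, a washout of 12 hours, and a further dose of 100 ng/ml lasting 60 minutes. Lipid A, the membrane anchor of lipopolysaccharide, is the ligand sensed through Tlr4. The samples carry 1 common donor entry, age and sex are not recorded, and whether the cultures derive from separate animals is not stated. Untreated or once-treated cells were not analysed here, so no value below is a response to lipid A.

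An antisense gene is read from the strand opposite to another gene, most often a protein-coding one, and the pair can share exon sequence, share only the gene body, or start close together and run apart. Some such RNAs act on the gene they face, as Airn does in silencing Igf2r on the paternal chromosome in mouse, while others, such as Tug1, are long cytosolic or nuclear RNAs with roles of their own. A read that falls where both genes have an exon can be given to the right gene only if the strand of the read was kept and used. No source used here states the strand setting of these tables, so each gene below is given with the bases it shares with a gene on the other strand.

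The total of counts over genes was 50807046 in replicate 1, 53364168 in replicate 2 and 46546422 in replicate 3, and 3 counts, the most that a count of 0 allows, correspond to 0.0612, 0.0557 and 0.0628 TMM-scaled CPM in the same order, for counting error only. CPM is the count relative to the size of its library, and TMM corrects that size after trimming genes with extreme differences. All 10 macrophage markers stood at 20.3 TPM or more. Of the 7 neutrophil markers 2 reached 1 TPM, with a summed level of 7.54 to 9.96 TPM, and 1 was listed at 0. None of the 6 T and natural killer cell, 4 erythroid and 4 mast cell or basophil markers reached 1 TPM. Of the 5 B cell markers Cd79b did, at 1.53 TPM. Of the 4 stromal markers Col1a1 did, at 1.27 TPM, and their summed level was 0.05 TPM in replicate 1, 6.87 TPM in replicate 2 and 2.99 TPM in replicate 3. The part of stromal RNA in the differences between libraries was not tested. The nuclear RNAs were highest in replicate 3, where Malat1 stood at 452.23 TPM, against 112.23 and 90.60 TPM in replicates 1 and 2, and Neat1 at 29.71 TPM, against 10.86 and 7.10 TPM. TPM of most genes was lower in replicate 3 than in replicate 1, by a median of 0.22 on the log2 scale over 10734 genes. After TMM scaling that median was 0.04, so libraries are compared below in TMM-scaled CPM and genes are compared in TPM.

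Most of the 136 genes were low. The median was 1.17 TPM, 8 genes stood at 10 TPM or more, 71 between 1 and 10 TPM, and 57 between 0.5 and 1 TPM. Their counts summed over the libraries ranged from 22 to 17519, with a median of 229. Together they held 0.0698%, 0.059% and 0.067% of the counts in replicates 1, 2 and 3. Of the 136 genes, 135 were above 0 in every library. The 3 highest held 39.7% of the summed TPM. Among the other genes with an antisense transcript, 1912 were listed at 0 in all libraries and 1041 lay above 0 with a mean under 0.5 TPM.

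**Figure D1:**
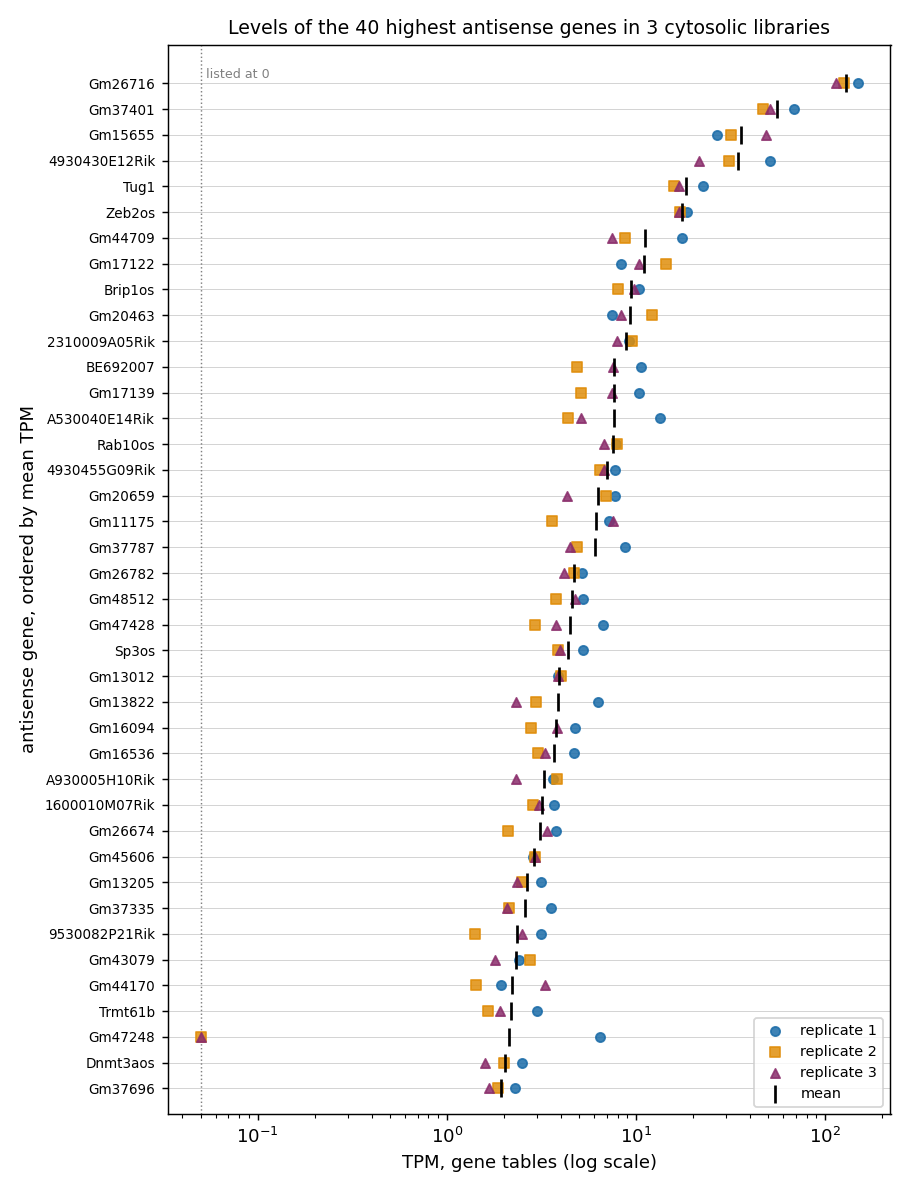
TPM in each of the 3 libraries (points) and their mean (black bar) for the 40 antisense genes with the highest mean, on a log axis, with values of 0 drawn at a dotted line. Gm26716 leads at 113.64 to 148.71 TPM, and Gm47248 has a value only in replicate 1.

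Overlap with the other strand was the rule among these genes. Exons overlapped an exon of an opposite-strand gene in 107 of the 136, a further 17 overlapped only the body of one, 7 only started within 2000 bases of one, and 5 had no opposite-strand gene by these criteria. In 16 genes every exon base lay inside exons of the other strand. These 16 had a median of 3.59 TPM and were facing genes with a median of 16.6 TPM, while the 29 genes with no shared exon base on the other strand had a median of 0.807 TPM. Exon bases shared with a gene on the same strand were found in 15 genes. Altogether 25 genes shared exon bases with no other gene.

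The deposited files hold a second set of transcript tables, made by another quantification, and genes lying inside opposite-strand exons made up most of those far lower in it. For the 136 genes the median ratio of second-table to gene-table TPM was 0.499, close to the median of 0.46 over all genes of at least 0.5 TPM. In 13 of the 136 genes (9.56%) the second tables gave under 0.1 of the gene-table level, against 2.25% of all genes of at least 0.5 TPM. Of these 13, 11 were among the 16 genes lying wholly inside opposite-strand exons, whose median ratio was 0.0129, and 5 of the 16 were at 0 in the second tables. None of the 29 genes with no shared exon base on the other strand fell under that ratio, and theirs ran between 0.445 and 2.84. The counts showed the same division. Among the 29 genes, 27 had counts that were whole to 2 decimals in every library, and none of the 16 did. In all, 51 of the 136 genes (37.5%) had whole counts, against 68.3% of all genes of at least 0.5 TPM. The deposited posterior SD of the count, a measure of how firmly reads were assigned, had a median of 14.2% of the count in the 16 genes and 0% in the 29.

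In 14 of the 136 genes the second tables gave the higher level, and these were with and without shared exon bases. They were led by Gm15726 with 7.36 TPM, against 0.653 TPM in the gene tables, and Adap2os with 4.88 TPM, against 1.59 TPM. In the other direction D330041H03Rik averaged 1.49 TPM in the gene tables and 0.0737 TPM in the second tables.

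**Figure D2:**
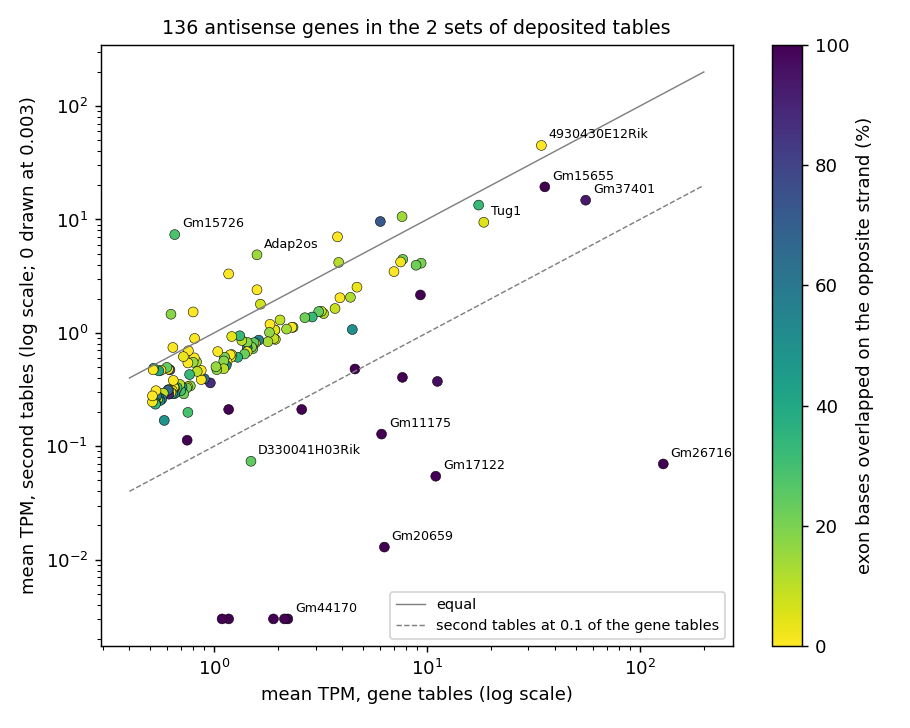
Mean TPM of the 136 antisense genes in the gene tables (horizontal) and in the second tables (vertical), both on log axes, coloured by the percent of exon bases that overlap an exon on the opposite strand. Most points lie under the line of equality, and the dark points of wholly overlapped genes make up 11 of the 13 below the dashed line at 0.1 of the gene-table level.

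Seen over the annotation, 77 genes with an antisense transcript lie wholly inside opposite-strand exons, the 16 included. Of the 26 whose opposite-strand gene stood at 10 TPM or more, 10 reached a mean of 0.5 TPM and 10 were listed at 0. Of the 51 with a lower opposite-strand gene, 6 reached 0.5 TPM and 32 were listed at 0. Over the whole annotation, 63 of the 136 genes and 468 of the 2955 other antisense genes faced a gene at 10 TPM or more. A larger share retained beside a higher opposite-strand gene was thus not particular to the wholly overlapped genes. In the second tables only 3 of the 77 reached 0.5 TPM.

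The highest gene of all belongs to this class. Gm26716 (ENSMUSG00000097224.1, mm10 chromosome 4, 130824394 to 130826313, minus strand) had a level of 148.71 TPM in replicate 1, 125.78 TPM in replicate 2 and 113.64 TPM in replicate 3 (129 ± 17.8 TPM, SD over 3 libraries). All 415 of its exon bases lie in non-coding exon sequence of Sdc3, which encodes the heparan sulfate proteoglycan syndecan-3 and stood at 218 ± 47.1 TPM. The second tables listed Gm26716 at 0, 0.209 and 0 TPM, so its place at the top holds in the gene tables alone. Gm37401 (chromosome 9, 108337089 to 108338273) shares 324 of 347 exon bases with Rhoa, a small GTPase of the actin cytoskeleton, and stood at 68.69, 47.22 and 51.27 TPM, with 14.8 TPM on average in the second tables. Gm15655 (chromosome 8, 115705078 to 115707233) lies wholly in non-coding exon sequence of Maf, a transcription factor of macrophages. It stood at 26.73, 31.79 and 48.92 TPM in the gene tables and at 17.2, 19.2 and 21.9 TPM in the second tables, so it kept a level above 10 TPM in both.

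Other genes inside opposite-strand exons were near 0 in the second tables. Gm17122, inside Coro1c, which encodes an actin-binding coronin, stood at 8.32, 14.35 and 10.40 TPM, but at 0.0544 TPM on average in the second tables. Gm44709 shares 433 of 448 exon bases with the elongation factor gene Supt5, 204 of them coding, and stood at 17.45, 8.71 and 7.47 TPM, with 0.373 TPM in the second tables. Gm20659, inside the phosphatase gene Dusp3, averaged 6.31 ± 1.78 TPM in the gene tables and 0.0129 TPM in the second tables. The genes at 0 in the second tables included Gm44170 inside Sec61a1, Gm47248 inside Trim34a, Gm43118 inside Pitpnb and Gm42846 inside Mxd4. Gm47248 was also uneven in the gene tables, with 188.20 expected counts in replicate 1 and 0 in both others, so it was retained through replicate 1 alone.

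Gm11175 shows the difficulty at the level of the bases. It lies inside the single-exon gene Jund, a member of the AP-1 family of early-response transcription factors, and all 877 of its exon bases are coding sequence of Jund. The first 60 bases of its leading transcript and the Jund bases facing them (mm10, chr8:70700021-70700080, GENCODE M21 transcripts) are printed 5′ to 3′ because each is the reverse complement of the other, so a read without its strand matches both.
Gm11175, minus strand: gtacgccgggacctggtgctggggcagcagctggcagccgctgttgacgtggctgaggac
Jund, plus strand: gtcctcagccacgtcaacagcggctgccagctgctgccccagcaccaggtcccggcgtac
Gm11175 stood at 7.21, 3.62 and 7.53 TPM in the gene tables, with a posterior SD of 22.4% of its count, and at 0.142, 0.0538 and 0.189 TPM in the second tables. Jund stood at 42.07, 38.02 and 35.56 TPM. The ratio of the second tables to the gene tables was 0.0209 for Gm11175.

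Among genes with mostly unshared exons, 4930430E12Rik was the highest. It is on chromosome 4 (6352105 to 6357530, minus strand), has no opposite-strand gene by the criteria used, and had whole counts of 1707.00, 1306.00 and 801.00 in replicates 1, 2 and 3. Its level was 51.09, 31.00 and 21.55 TPM in the gene tables and 58.3, 47.2 and 29.4 TPM in the second tables, in the same order of libraries. Tug1, a long non-coding RNA first described in the retina, stood at 22.75, 15.80 and 16.93 TPM, or 18.5 ± 3.73 TPM. It rested on the largest number of counts of all 136 genes, 5455.38 to 6588.27 a library. Tug1 and Morc2a, which encodes a chromatin-silencing ATPase, start 482 bases apart on opposite strands of chromosome 11 and share 483 exon bases, 5% of those of Tug1. Morc2a was lower, at 4.61, 4.48 and 4.94 TPM. Tug1 was spread over 7 of its 8 annotated transcripts, and the leading one held 28.1% ± 1.44 of its TPM.

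Zeb2os was the steadiest of the 12 highest genes in the gene tables. It lies inside Zeb2, which encodes a transcription factor of macrophage identity, and shares 653 of its 1990 exon bases with it, none of them coding. In human cells the antisense RNA of this locus is known to change splicing of the leader of ZEB2. Zeb2os stood at 18.63, 17.02 and 16.85 TPM and at 30.9, 31.3 and 30.8 TMM-scaled CPM, while Zeb2 stood at 144.23, 125.75 and 112.95 TPM. The second tables gave Zeb2os 10.7, 12.3 and 17.1 TPM, highest in replicate 3, so its evenness holds for the gene tables. Brip1os, which overlaps 800 coding bases of the Mediator gene Med13, averaged 9.39 ± 1.22 TPM, and 99.8% ± 0.258 of it was 1 transcript. 2310009A05Rik, opposite to the GPI-anchor enzyme gene Pigb, averaged 8.89 ± 0.819 TPM, against 4 ± 0.269 TPM for Pigb. Gm20463, wholly inside exons of the ubiquitin ligase gene Rnf5, averaged 9.32 ± 2.45 TPM, with 2.16 TPM in the second tables. 4930455G09Rik, which like 4930430E12Rik has no opposite-strand gene by the criteria used, averaged 7 TPM with whole counts.

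BE692007 overlaps Ms4a6c, a membrane protein gene of macrophages, over 1088 of 5236 exon bases. It had 65.9, 33.5 and 50.7 TMM-scaled CPM in replicates 1, 2 and 3, and Ms4a6c had 912, 568 and 697 CPM, so both were highest in replicate 1 and lowest in replicate 2. Over all 131 pairs, 65 were listed with the same highest library in TMM-scaled CPM. An opposite-strand gene at 0 in every library, such as Gm23100 opposite to 1600010M07Rik, was set to replicate 1 in this count. The share among other pairs of genes was not computed, so the number is a description. Most of BE692007, 95.7% ± 3.52, was assigned to 1 transcript with the biotype retained intron.

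Several symbols carry the ending os, for opposite strand. Besides Zeb2os and Brip1os these were Rab10os at 7.52 ± 0.641 TPM, Sp3os at 4.37 ± 0.793, Dnmt3aos at 2.04 ± 0.451, Adap2os at 1.59 ± 0.677, Plxna4os1 at 1.56 ± 0.537, Bach2os at 1.54 ± 0.874 and Peak1os at 1.43 ± 0.838 TPM. Tnfsf13os, Zbtb11os1, Mypopos, Zfp652os, Ttc39aos1 and Rapgef3os1 lay between 0.53 and 1.39 TPM. Most stood below the gene they face, which is Med13 for Brip1os. Dnmt3a, which encodes a DNA methyltransferase, stood at 39.7 ± 10.8 TPM, Rab10, a GTPase of membrane traffic, at 66.5 ± 12.6 TPM and the transcription factor gene Sp3 at 17.9 ± 2.23 TPM. Plxna4os1, Bach2os and Mypopos were the reverse. Plxna4os1 lies in the body of Plxna4, a semaphorin receptor, with no shared exon base, and stood at 2.17, 1.17 and 1.33 TPM, while Plxna4 was at 0.0167 TPM on average. Bach2os shares 537 exon bases with the lymphoid transcription factor gene Bach2 and stood at 1.63, 2.36 and 0.62 TPM, while Bach2 averaged 0.1 TPM. Mypopos averaged 1.21 ± 0.0961 TPM and Mypop 0.64 ± 0.0173 TPM.

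Genes of the lipid A response were searched for antisense partners with 7 lists of 235 genes: inflammatory mediators, NF-κB and TLR4 pathway genes, early-response and interferon-stimulated genes, negative regulators and macrophage identity genes. The annotation places 37 antisense genes opposite to them, of which 7 were among the 136 and 10 were listed at 0 in all libraries. Over all 3091 genes with an antisense transcript, 136 were retained and 1912 were listed at 0. These 7 stood opposite to Jund and Zfp36 (early response), Oasl1 (interferon-stimulated), Cd274 (negative regulator), Ebi3 (inflammatory), and Tnfaip2 and Ikbke (NF-κB). No gene of the 136 faced a gene of the TLR4 pathway or macrophage identity lists. The annotation places only 4 and 2 antisense genes opposite to these lists, and Zeb2 and Maf are in none of the 7 lists. Apart from Gm11175, each of the 7 antisense genes was far below the gene it faced, with log2 ratios of the antisense gene to that gene between -9.64 and -5.23.

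The clearest of them was Gm13822, opposite to Oasl1, an interferon-stimulated gene that in mouse limits translation of Irf7. Their starts on chromosome 5 lie 37 bases apart and the pair runs in opposite directions, overlapping by 38 of 346 exon bases. The 250 bases before the Oasl1 start (mm10, chr5:114922990-114923239, plus strand, RefSeq, GRCm38.p6) lead up to this overlap. Capitals mark the 36 bases that are exon of Gm13822 on the other strand and are not shared with Oasl1. Both starts and the 38 shared bases lie just after the printed stretch.
Oasl1 upstream: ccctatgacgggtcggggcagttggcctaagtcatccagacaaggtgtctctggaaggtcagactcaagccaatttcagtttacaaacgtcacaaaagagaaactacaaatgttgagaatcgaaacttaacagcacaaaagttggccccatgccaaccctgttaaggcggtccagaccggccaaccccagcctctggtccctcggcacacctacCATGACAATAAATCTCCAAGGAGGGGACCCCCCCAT
Gm13822 had whole counts of 62.00, 38.00 and 24.00 and a level of 6.27, 2.96 and 2.31 TPM in replicates 1, 2 and 3, while Oasl1 stood at 186.83, 113.99 and 116.73 TPM. Both were highest in replicate 1. The second tables gave Gm13822 5.98, 3.68 and 2.88 TPM, a ratio of 1.09 to the gene tables. The median ratio over all genes of at least 0.5 TPM was 0.46, and Oasl1 averaged 57.2 TPM in the second tables, against 139 TPM. The 300-base window of Oasl1 holds on neither strand a match to GAAA, any 2 bases and GAAA, the core letters of the interferon-stimulated response element, nor to GGGA, any 2 bases and TTCC, letters of an NF-κB site. Only exact matches were sought, so a site that departs from these letters would be missed.

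AC119228.1 differed widely between the libraries. It lies inside Cd274, which encodes the checkpoint ligand PD-L1, on chromosome 19 (29373417 to 29384471, minus strand), and shares 511 of 4725 exon bases with it, all coding. It had 277.90, 135.15 and 970.07 expected counts, or 0.87, 0.35 and 2.83 TPM, and was highest in replicate 3. Cd274 was highest in replicate 1, at 273.71, 154.19 and 184.98 TPM. The second tables gave AC119228.1 0.646, 0.254 and 1.66 TPM, the same order of libraries.

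The other 4 were close to the threshold. Gm16712, opposite to the interleukin-27 subunit gene Ebi3, averaged 0.65 ± 0.167 TPM, against 84.2 ± 9.51 TPM for Ebi3. Gm40578, opposite to Tnfaip2, a gene induced by tumour necrosis factor, stood at 0.41, 0.25 and 0.90 TPM. Tnfaip2 stood at 205.44, 364.59 and 144.37 TPM. Gm40578 averages 0.33 TPM without replicate 3 and was retained through that library, so the order of its libraries is tied to its selection. Gm44710, opposite to Zfp36, whose product tristetraprolin drives decay of cytokine messages, had 11.00, 15.00 and 9.00 expected counts and averaged 0.55 ± 0.0985 TPM, against 527 ± 131 TPM for Zfp36. Gm28913, inside the kinase gene Ikbke, rested on 22 counts over the libraries, averaged 0.627 ± 0.663 TPM, against 52.3 ± 8.09 TPM for Ikbke, and was the 1 gene of the 136 under the minimum of 30 counts for a test.

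More immune genes stood opposite to antisense genes outside those lists, and these and the following examples beyond the highest and most variable genes were picked after their values were seen. Gm37787 lies in Slamf7, a surface receptor of activated macrophages, and stood at 8.75, 4.87 and 4.50 TPM, with Slamf7 at 227 ± 54.1 TPM. Gm16094 starts 469 bases from Sp110, an interferon-inducible nuclear body gene, shares no exon with it, and averaged 3.8 ± 0.985 TPM, with whole counts, while Sp110 averaged 77.6 ± 15.2 TPM. Gm15133 and Trim12a start 447 bases apart, overlap in their gene bodies without exon overlap, and averaged 0.64 ± 0.114 TPM and 35.9 ± 4.25 TPM. Gm19412 shares 904 of 1060 exon bases with Tapbp, the peptide-loading protein tapasin, and averaged 0.613 ± 0.212 TPM, and Gm11131, opposite to the MHC class I gene H2-Q4, averaged 0.797 ± 0.0981 TPM. A930007I19Rik overlaps the body of Pdcd1lg2, which encodes PD-L2, without exon overlap, and averaged 0.563 ± 0.14 TPM, above Pdcd1lg2 at 0.103 ± 0.0351 TPM.

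F630028O10Rik carries a microRNA. It is on chromosome X (96239926 to 96243636, plus strand), has no opposite-strand gene by the criteria used, and holds the hairpin of Mir223 on its own strand. Gm20632 likewise shares 138 exon bases with a microRNA entry of its own strand, Gm47311. The microRNA miR-223 is known for its abundance in myeloid cells. Its mature forms (RefSeq, GRCm38.p6, chrX:96242842-96242864 and chrX:96242884-96242905) are shown because they lie within the measured gene, with the seed, bases 2 to 8, in capitals.
mmu-miR-223-5p: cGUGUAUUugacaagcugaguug
mmu-miR-223-3p: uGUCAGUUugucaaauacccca
The seeds of both arms differ. The libraries measure the long RNA, not the mature microRNA. F630028O10Rik had whole counts of 121.00, 79.00 and 244.00 and stood at 0.58, 0.31 and 1.08 TPM, highest in replicate 3, as in the second tables with 0.242, 0.17 and 0.493 TPM. Its promoter window (chrX:96239676-96239975, plus strand, RefSeq, GRCm38.p6) is shown because it held 1 of the matches to the interferon element letters among the antisense genes, in capitals on the complementary strand and starting 74 bases before the gene start.
F630028O10Rik promoter: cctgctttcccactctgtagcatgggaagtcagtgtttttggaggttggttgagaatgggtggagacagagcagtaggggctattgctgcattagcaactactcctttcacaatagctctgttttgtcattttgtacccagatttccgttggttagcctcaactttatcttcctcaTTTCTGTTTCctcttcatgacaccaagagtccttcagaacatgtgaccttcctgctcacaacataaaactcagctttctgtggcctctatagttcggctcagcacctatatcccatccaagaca

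RefSeq windows of 300 bases, from 250 before to 50 after a start, were at hand for 66 of the 136 genes, in 78 windows. The interferon element letters (GAAA, any 2 bases, GAAA), on either strand, were in 4 of the 78 (5.13%), those of F630028O10Rik, Rab10os, 1600010M07Rik and 4930599N23Rik, and in 3.43% of all 32817 windows. The NF-κB letters (GGGA, any 2 bases, TTCC) were in 1 (1.28%), that of A630012P03Rik, and in 1.47% of all, so no window of the antisense genes held both. The windows of the antisense genes had a median GC content of 55.8%, and all windows 52.7%. Where the start lay within 1000 bases of the opposite-strand gene's start, the median was 60.3% over 20 windows, and in the other antisense genes 52.5% over 58.

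Against the gene on the other strand, antisense genes were mostly the lower of the pair. Of the 131 with such a gene, all but 1 faced a protein-coding gene, 103 stood below it and 28 above it. The median log2 ratio of the antisense gene to its opposite-strand gene was -2.61 (TPM, with 0.1 added to both). The median was -2.72 in genes with exon overlap and -0.67 in those with body overlap only. The lowest ratios were Gm44710 to Zfp36 at -9.64 and Gm4285 to Tpt1 at -9.58, where Gm4285 and the growth-related gene Tpt1 start 129 bases apart and share no exon.

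Most of the 28 higher genes faced a gene under 1 TPM. Plxna4os1, Bach2os and A630012P03Rik are examples with log2 ratios of 3.78, 2.91 and 2.66. Gm10863 and Gm26982 averaged 0.517 ± 0.143 and 0.513 ± 0.136 TPM, while the neural crest gene Sox10 was listed at 0 and the ghrelin gene Ghrl averaged 0.00667 TPM. Tug1 at a log2 ratio of 1.94 and 2310009A05Rik at 1.13 were the ones above 5 TPM. Airn, which overlaps the body of Igf2r without exon overlap, stood at 0.97, 0.49 and 0.96 TPM, below Igf2r at 9.27 ± 0.482 TPM. The entry ENSMUSG00000085492.7 carries the symbol Trmt61b, which it shares with a coding gene; it averaged 2.19 ± 0.705 TPM and faces Spdya at 0.02 TPM.

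**Figure D3:**
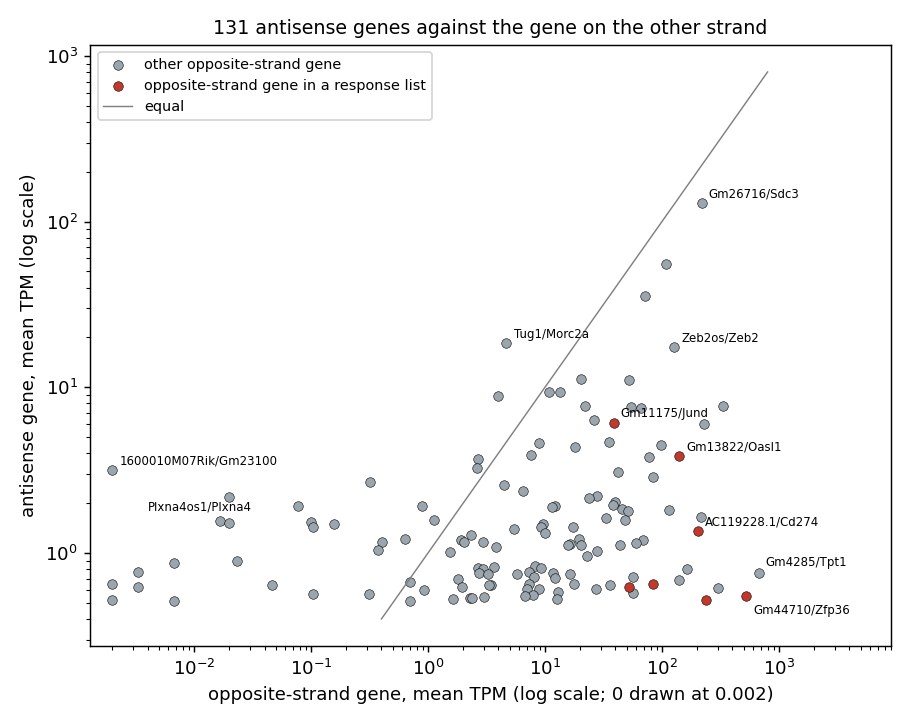
Mean TPM of 131 antisense genes (vertical) against the gene on the opposite strand (horizontal), both on log axes, with a line of equality; red points face a gene of the response lists. All 7 red points lie below the line, and 28 points lie above it, among them Tug1 and Plxna4os1.

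Whether the libraries differed by more than counting noise was asked for every gene with a chi-square test of the 3 counts against TMM-scaled library sizes, adjusted by Benjamini-Hochberg over 13075 genes with at least 30 counts. Of the 135 antisense genes tested, 62 (45.9%) differed at an adjusted p under 0.05, against 67.0% of all genes tested and 50.7% of the 4184 genes with 67 to 1322 counts, which are the counts between the 10th and 90th percentile of the antisense genes. The share of varying antisense genes was thus near that of genes in this range of counts, which includes most of the antisense genes themselves. The share of the antisense genes within the range alone was not computed. Of the 62, 32 were highest in replicate 1, 10 in replicate 2 and 20 in replicate 3. The same split among all varying genes was not computed, so these numbers are a description and no trait of antisense genes. Genes with exon overlap varied in 52 of 106 cases, those with body overlap in 7 of 17, those with neighbouring starts alone in 0 of 7, and those with no opposite-strand gene in 3 of 5. The test takes counts as exact, and the effect of uncertain assignment on these calls was not tested. Without 1 particular library 15 of the 136 genes would average under 0.5 TPM, and 7 of these are among the 62, so their differences are tied to how they were selected.

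Replicate 1 was highest most often when levels were read in TPM, but less so after TMM scaling. In TPM, 81 genes (59.6%) were highest in replicate 1, 30 in replicate 2 and 25 in replicate 3, against 65.1%, 22.2% and 12.7% of all genes of at least 0.5 TPM. In TMM-scaled CPM the numbers were 57 (41.9%), 36 (26.5%) and 43 (31.6%), against 36.0%, 36.2% and 27.8% of all genes.

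The 6 genes with the largest spread in TMM-scaled CPM were AC119228.1, Gm47248, A530040E14Rik, F630028O10Rik, Gm43118 and A630012P03Rik. They were picked for this spread, which the chi-square test also measures. The small p-values given for some of the 6, here and below, are therefore no separate support. A530040E14Rik, which lies in C130026I21Rik and shares 343 of 2323 exon bases with it, had 22.2, 8.02 and 9.96 CPM (adjusted p = 6.3e-96, chi-square test), and C130026I21Rik had 53.2, 29.8 and 34.6 CPM. A630012P03Rik, on chromosome X across part of the glypican gene Gpc3, had 3, 0.947 and 1.34 CPM, and no test is given for it, since it averages 0.38 TPM without replicate 1 and was retained through that library. Gm43118, inside Pitpnb, had 0.565, 2.32 and 2.51 CPM (adjusted p = 1.3e-13, chi-square test), and is at 0 in the second tables. All 775 of its exon bases are shared with Pitpnb, and its posterior SD was 27.7% of the count. The test does not take that uncertainty into account, so this p-value overstates the certainty. Peak1os, with 3.79, 1.37 and 2.07 CPM, was likewise highest in replicate 1 (adjusted p = 2.4e-14).

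AC119228.1 and F630028O10Rik were highest in replicate 3, the library with the most Malat1, Neat1 and 7SK RNA. AC119228.1 had 5.66, 2.51 and 20.3 CPM (adjusted p = 2.1e-210, chi-square test). F630028O10Rik had 2.47, 1.47 and 5.11 CPM, and no test is given for it, since it averages 0.445 TPM without replicate 3 and was retained through that library. Gm15655 with 9.08, 12.5 and 18.2 CPM was also highest there. Gm40578 had 0.439, 0.296 and 1.09 CPM, but it too was retained through replicate 3. Rn7sk stood at 68232.34 TPM in replicate 3, against 27777.88 and 26911.99 TPM in replicates 1 and 2. The part of nuclear RNA in these values was not tested.

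The steadiest genes with at least 30 counts were Zeb2os, D130020L05Rik and 4930539J05Rik. They were picked for the smallest spread, which the chi-square test also measures, so their large p-values follow from that choice. D130020L05Rik, opposite to Ppp4r3a, had 0.662, 0.661 and 0.682 CPM (adjusted p = 0.98) and 4930539J05Rik, opposite to the ubiquitin-conjugating enzyme gene Ube2d3, had 0.353, 0.38 and 0.381 CPM (adjusted p = 0.97). Zeb2os had an adjusted p of 0.89. D130020L05Rik and 4930539J05Rik rest on few counts, so a moderate difference was not detectable at this depth.

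**Figure D4:**
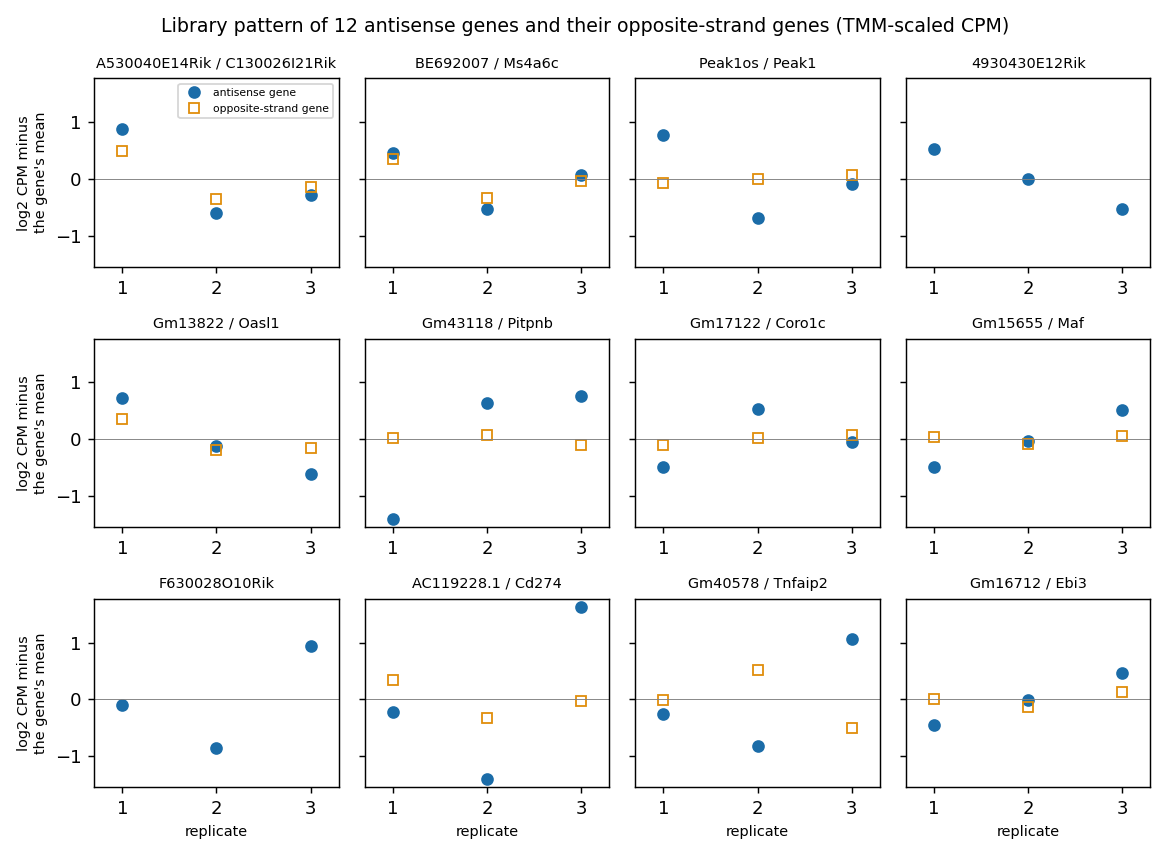
TMM-scaled CPM of 12 antisense genes (filled circles) and their opposite-strand genes (open squares) in each replicate, as log2 difference from the gene's own mean. A530040E14Rik and BE692007 have the same highest and lowest library as their opposite-strand genes, while AC119228.1 is highest in replicate 3 and Cd274 is not. Gm40578 and F630028O10Rik were retained through replicate 3, where they are highest.

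Compared with the 2955 other genes with an antisense transcript, the 136 were longer, with a median of 1416 exon bases, against 951. Exon overlap was found in 78.7% of them, against 58.7% of the others, and a start within 1000 bases of the opposite-strand gene's start in 22.1%, against 14.8%. The opposite-strand gene stood at 10 TPM or more for 46.3%, against 15.8% of the others. These shares are a description, since the 136 were chosen for their level and the reads of shared exons cannot be told apart without strand. Of the 136, 122 had antisense transcripts only, and 63 had a single transcript.

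The genes nearest to the threshold differed little across it. Just inside were Gm40578 at 0.52, Gm10863 at 0.517, and 2810402E24Rik and Gm26982 at 0.513 TPM. Just outside were Gm15987 at 0.497, C230062I16Rik and Gm16537 at 0.493, and 1700022N22Rik at 0.483 TPM. Of the genes left out by name, Zfas1 stood at 41.4 ± 11.3 TPM and Snhg9 at 0.553 ± 0.497 TPM and also have antisense transcripts, Tsix was listed at 0, and Kcnq1ot1 averaged 0.02 TPM. Gas5, without an antisense transcript, averaged 42.7 ± 5.76 TPM.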

How the data were processed

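Ribosome-depleted total RNA of the cytosolic fraction was sequenced in 3 libraries of 1 group, each made from 1 µg of RNA, per the labels. Expected counts per gene were deposited by the authors on mm10 with GENCODE M21, per the text deposited with each library. TPM per gene and transcript was computed by the authors, per the file headers, in the gene tables and, with estimated counts, in second transcript tables, which were summed to genes here. The deposited posterior SD of a count (a score of assignment), the TPM interval bounds (read as a signal) and the percent of a gene in each transcript are the authors', per the file headers. No source used here names the tools, their versions or a strand setting.

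Overlap, class and coordinates came from the GENCODE M21 annotation. The opposite-strand gene was a gene on the other strand with shared exon bases, else shared body, else a start within 2000 bases, coding genes first. Expected counts were rounded and scaled by TMM (edgeR 4.0.16, R 4.3.3; size factors of DESeq2 1.42.0 as an alternative). Entries that are not genes (0.378%, 0.0931% and 0.0772% of counts) were left out. The chi-square test (2 degrees of freedom, at least 30 counts, Benjamini-Hochberg over all genes) was checked on simulated counts. It measures the spread between these samples, which may be technical. Python 3.11.15, pandas 2.3.3, scipy 1.17.1 and matplotlib 3.10.9 were used.

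Named genes were the 12 highest, the 6 with the largest and 3 with the smallest spread, the 4 on each side of the threshold, those facing a listed response gene and those whose symbol names their partner. Any other gene was named after its values were seen. The genes and lists were chosen with earlier results of these data known. Some antisense pairs are not reported here.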

Additional observations from a re-analysis of the deposited data

How the results depend on the processing

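The number of genes passing the rule was 90 in the second tables (73 of them shared with the 136), 216 at a threshold of 0.25 TPM and 79 at 1 TPM, 122 with antisense transcripts only, and 132 to 144 when a replicate was left out. The number varying between libraries was 61 to 65 under other scalings, count minimums and the second tables, and 42 to 48 with 2 libraries. The share of all genes that varied moved more. At a minimum of 1 count, 61 of 136 antisense genes varied, against 44% of all genes. At a minimum of 10 counts it was 63 of 136, against 61.7%. By the other quantification 65 of 126 varied, against 70.2%. With 2 libraries the share of all genes was 49% to 52.3%. The standing of the antisense genes against all genes thus depended on the count minimum. The number highest in replicate 3 was 25 in TPM, 43 with TMM and with DESeq2 scaling, 48 in CPM by total counts and 50 in TPM rescaled over coding genes. The number highest in replicate 1 was 50 in CPM by total counts, 45 in rescaled TPM and 46 in the second tables, where 49 were highest in replicate 2. The cause was not tested. The median log2 ratio of antisense to opposite-strand gene was -2.67 and -2.09 with 0.01 and 1 added to both, -2.59 in the second tables, and -2.61 to -2.45 when a replicate was left out. The direction of 2 of 131 pairs differed in the second tables. The median level of the 42 named genes was 1.57 TPM in the gene tables and 0.748 TPM in the second tables, and 1.42 to 1.76 TPM when a replicate was left out. No paired analysis was possible because the libraries form 1 group. Depth limits genes with few counts, and overlapped genes are limited by the unstated strand setting.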
